A study of Mus musculus with 2 samples.

Results

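Single E14 mouse embryonic stem cells with the highest summed expression of S100a6, Sfn, Krt18, Fgfbp1, Cryab, Lgals1, Anxa3 and Phlda1 are described here. They were chosen by these measured values: a cell's score was the sum of the unique molecular identifiers (UMIs, each marking a captured molecule) of the 8 genes per 10000 UMIs of the cell. The top 10% of kept cells of each library were taken as members. This gave 498 of 4978 kept cells in the control library and 274 of 2731 in the sonKD library, or 772 of 7709 in all. Since the rule fixed the direction of the 8 genes, their levels in the members are a description and not a finding.

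E14 is an established stem cell line of 129/Ola background. Cells of both groups were grown on gelatin in medium with 15% fetal bovine serum and leukaemia inhibitory factor, and were transfected by lipofection. The control group received a control small interfering RNA (siRNA), and the sonKD group received siRNA against Son, the gene of an RNA-binding speckle protein needed for the splicing of many transcripts. Both were detached 24 hours after transfection, frozen, thawed, sorted for exclusion of the dead-cell dye 7-AAD and barcoded on the 10x Genomics Chromium system (3' v3 chemistry). Each group held 1 library, so cells are no replicates, no test was made and no p-value is given, and a difference between the libraries cannot be told apart from an effect of the knockdown. Nothing in the labels marks which cells took up siRNA. Intervals are at 95% and cover counting error only: exact Poisson for CPM (a gene's UMIs per 1000000 UMIs of the summed cells), exact conditional binomial for ratios and exact binomial (Clopper-Pearson) for shares.

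As background, Krt8 and Krt18 pair to form the keratin filaments of simple epithelia and are the earliest keratins of the mouse embryo, where the trophectoderm, the outer layer that forms the placenta, carries them. Embryonic stem cells in serum are a mixture of states in which naive pluripotency genes such as Nanog and Tcl1 vary from cell to cell. Among the genes that chose the cells, S100a6 encodes a small calcium-binding protein, Anxa3 an annexin that binds membranes in the presence of calcium, and Lgals1 the carbohydrate-binding galectin-1. Sfn encodes 14-3-3 sigma, an epithelial adaptor protein and a known target of p53. Cryab encodes a small heat shock protein, Fgfbp1 a carrier of fibroblast growth factors, and Phlda1 a pleckstrin homology-like domain protein.

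Since these genes were counted high in the same cells, the sequences upstream of 3 of them are shown. These are S100a6, which gave the most UMIs of the score in the members, Sfn, and the keratin gene Krt18. Each line gives bases of the sense strand, 5′ to 3′, up to the base before the annotated gene. They come from the RefSeq promoter table on GRCm38.p6, which matched 4 of the 8 genes. Lgals1, which gave the second most score UMIs in members (22.6% in control and 21.2% in sonKD), was not matched. The S100a6 window is chr3:90612644-90612881 (plus strand, 238 bases), the Sfn window chr4:133602169-133602418 (minus strand, 250 bases) and the Krt18 window chr15:102027966-102028179 (plus strand, 214 bases).
S100a6: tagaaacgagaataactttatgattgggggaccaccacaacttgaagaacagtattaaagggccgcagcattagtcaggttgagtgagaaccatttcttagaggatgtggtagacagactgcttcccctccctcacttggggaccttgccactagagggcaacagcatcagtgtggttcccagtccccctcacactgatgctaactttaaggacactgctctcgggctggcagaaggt
Sfn: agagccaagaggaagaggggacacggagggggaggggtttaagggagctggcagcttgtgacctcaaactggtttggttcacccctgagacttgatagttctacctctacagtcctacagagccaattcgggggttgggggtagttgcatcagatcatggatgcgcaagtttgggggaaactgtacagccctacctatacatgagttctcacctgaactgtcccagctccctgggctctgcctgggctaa
Krt18: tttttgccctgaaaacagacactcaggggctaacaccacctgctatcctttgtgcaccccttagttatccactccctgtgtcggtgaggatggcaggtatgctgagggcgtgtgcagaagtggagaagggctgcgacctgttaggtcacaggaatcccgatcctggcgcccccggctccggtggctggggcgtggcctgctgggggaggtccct

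The 4 matched promoters (Fgfbp1 being the fourth) were searched over 250 upstream bases on both strands. The motifs were the AP-1 letters TGANTCA, the TEAD letters GGAATG, the TATA box letters TATAAA, the GC box GGGCGG, and the p53 site by its name. None of the 4 held any of them, so no base above is in capitals. Among all 32851 promoters of the table, 6.75% held the AP-1 letters, 12.6% the TEAD letters, 12.4% TATAAA, 32.7% the GC box and 0.0639% the p53 site. A missing match says only that the letters are not in the window.

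In GENCODE M21 on GRCm38, the S100a6 gene lies at chr3:90612882-90624181 and Sfn, a gene of 1 exon, at chr4:133600556-133602168. Krt18 (7 exons, plus strand) spans chr15:102028180-102032027, and Krt8 (9 exons, minus strand) spans chr15:101996698-102004482. The keratin partners are thus neighbours on chromosome 15, with 23.7 kb between them. Fgfbp1 lies at chr5:43978858-43981779, Anxa3 at chr5:96793339-96845966, Cryab at chr9:50751325-50756636, Lgals1 at chr15:78926725-78930465 and Phlda1 at chr10:111506286-111508645. Of the last 300 bases of each transcript end, where this chemistry reads, Krt18 shared 8.12% of its 30-base words with other genes and the remaining score genes at most 2.95%, so few of their reads could be split with a copy.

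The control library held 71046373 UMIs and the sonKD library 60352438. Of the barcodes with at least 2500 UMIs and 1000 genes, 625 in control and 1056 in sonKD were left out for more than 10% mitochondrial UMIs, and 2 kept barcodes, none of them a member, occurred in both libraries. Son itself stood at 169 CPM in control members and 90.2 in sonKD members, a log2 ratio of -0.91 (-1.12 to -0.70), and the other cells gave -0.65 (-0.71 to -0.59). Members were somewhat shallower than the other cells of their library: the median UMI count was 6908 against 7816 in control and 10552 against 11705 in sonKD. The lowest depth decile held 22.5% members in control and 17.2% in sonKD, and the highest held 6.02% and 8.79%. Mitochondrial UMIs had a median of 4.19% in control members against 3.62% in other cells, and of 4.53% against 4.06% in sonKD. With every cell thinned to 2500 UMIs, members had a median of 1338 genes against 1349 in control, and of 1294.5 against 1289 in sonKD. The part of depth and mitochondrial share in the results was not tested beyond the alternatives given after the results.

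The score had a long upper tail with no gap at the threshold. The lowest member stood at 7.43 in control, just above the highest non-member at 7.42, and at 11.70 against 11.68 in sonKD. The 10 members just inside reached up to 7.48 in control and 12.02 in sonKD, and the 10 cells just outside reached down to 7.31 and 11.26. The median score was 11.8 in control members and 2.03 in other cells, and 22.4 and 2.72 in sonKD. The highest cell scored 155 in control and 242 in sonKD. Members carried a median of 8 UMIs of the score genes in control (2 to 129) and of 23.5 in sonKD (4 to 248), so a control member can rest on few molecules: 49 of them, or 9.84%, had fewer than 5.

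**Figure D1:**
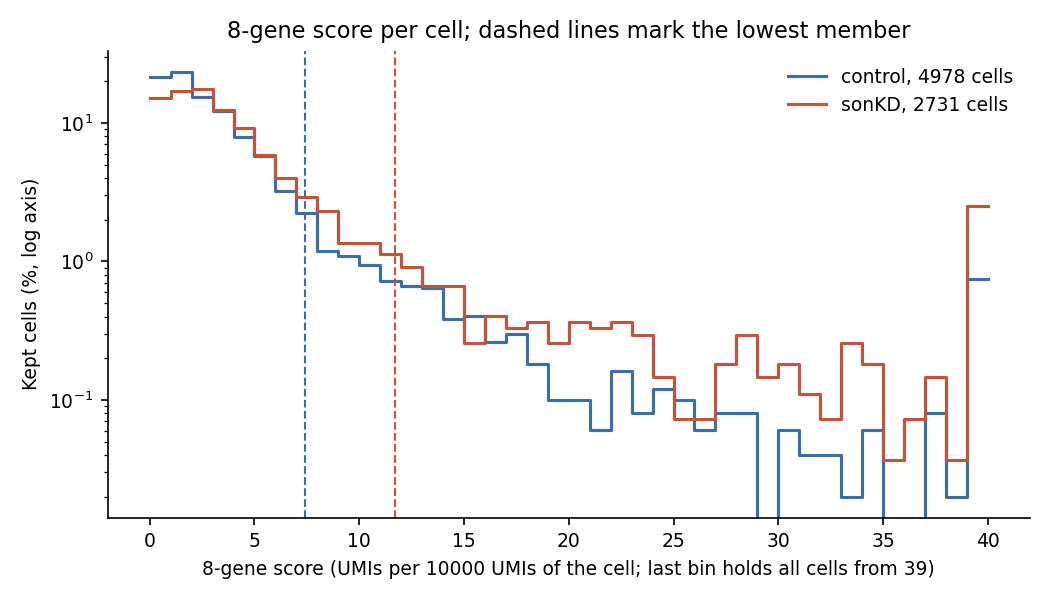
The 8-gene score (x axis, UMIs per 10000 UMIs of the cell) against the share of kept cells in percent on a log axis, for 4978 control and 2731 sonKD cells, with dashed lines at the lowest member of each library (7.43 and 11.70). The sonKD line lies above the control line over most of the tail, and no gap separates members from other cells.

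Free RNA in the droplets carried the score genes too. Droplets of 100 to 500 UMIs gave a pooled score of 5.44 in control and 7.01 in sonKD, above the 2.35 and 3.21 of the non-members and below the 16.9 and 35.2 of the members. Of the barcodes left out for mitochondrial UMIs, 7.52% in control and 5.21% in sonKD passed the member threshold, and their exclusion is part of the rule. The same threshold does not mean the same level in both libraries. Of the sonKD cells, 485 (17.8%, 16.3 to 19.2) passed the control threshold, and of the control cells, 252 (5.06%, 4.47 to 5.71) passed that of sonKD.

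S100a6 gave more of the members' score UMIs than any other gene, 38.8% in control and 48.5% in sonKD. Its level was 655 CPM in control members and 48.2 in other cells, and 1707 and 92.8 in sonKD, and members held 56.8% and 65.0% of the S100a6 UMIs of their library. Sfn stood at 295 CPM against 35.1 in control and 437 against 33.6 in sonKD. Lgals1, already frequent in other cells at 91.3 and 117 CPM, stood at 381 and 744 in members. Krt18 was at 77.2 CPM in control members against 14.8, and at 201 against 17.0 in sonKD, which made up 4.58% and 5.73% of the members' score UMIs. Cryab (89.0 and 131 CPM), Anxa3 (79.1 and 127), Fgfbp1 (55.6 and 86.8) and Phlda1 (55.0 and 83.0) stayed below 150 CPM in members of control and sonKD alike. A median member had UMIs of 4 of the 8 genes in control and 5 in sonKD, and 9 and 26 members had all 8. No other cell did, while its median was 1 and 2 genes.

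How far the 8 genes go together was described with each gene left out in turn. The top 10% of cells were chosen on the other 7 genes, and the left-out gene, which had no part in that choice, was compared with the rest of the library. The 8 genes were themselves picked from these data as genes high in the same cells, so their going together describes that choice and supports nothing further. All 8 genes were higher in the cells so chosen in both libraries, with a median log2 ratio of 2.13 in control and 3.06 in sonKD. Left-out Fgfbp1 gave the highest ratio in control at 3.03 (2.73 to 3.32), followed by S100a6 at 2.71 (2.62 to 2.80) and Sfn at 2.64 (2.52 to 2.76). Lgals1 gave the lowest at 1.52 (1.42 to 1.62). In sonKD the order began with S100a6 at 3.63 (3.57 to 3.70), Krt18 at 3.51 (3.34 to 3.69) and Sfn at 3.48, and Phlda1 was lowest at 2.42 (2.18 to 2.66). The cells chosen without S100a6 were 71.1% members in control, and those chosen without Krt18 in sonKD were 98.5% members. The highest 1% of cells carried part of this: once they were removed, the median was 1.60 in control and 2.17 in sonKD, and left-out Krt18 gave 0.59 and 1.25.

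**Figure D2:**
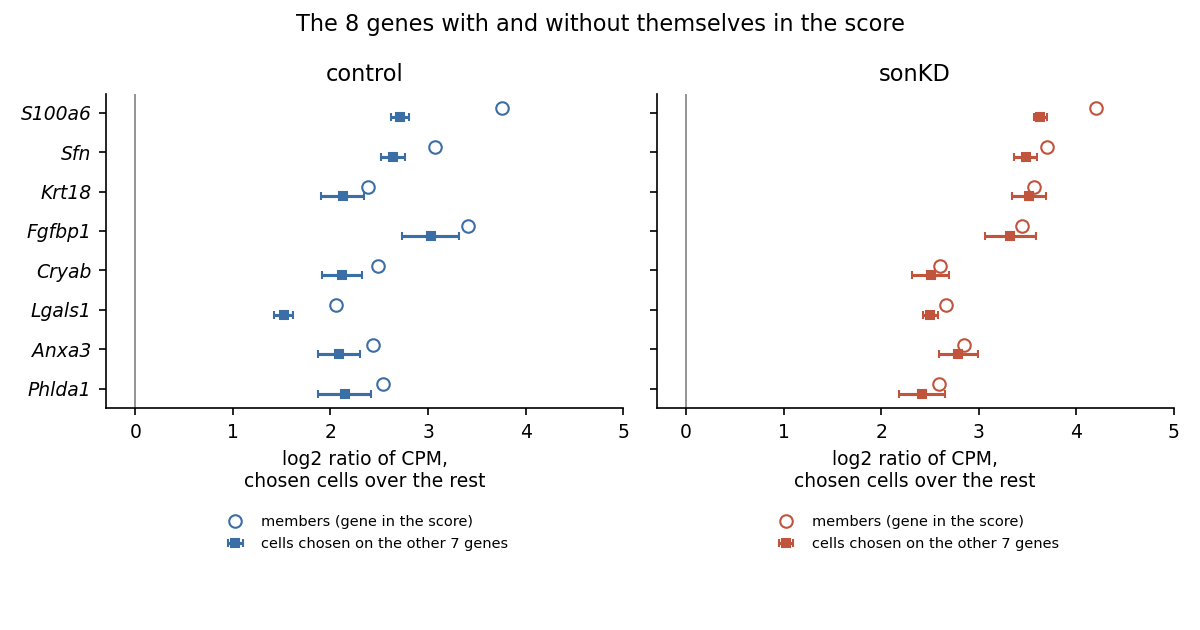
Log2 ratio of CPM (x axis) of each score gene in control and sonKD, for members, where the gene was in the score (open circles), and for cells chosen on the other 7 genes (squares, bars are 95% counting intervals). All squares lie above 0, from 1.52 for Lgals1 in control to 3.63 for S100a6 in sonKD.

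At a depth of 2500 UMIs per cell, S100a6 was detected in 68.1% of control members and 10.1% of other cells, and in 89.1% and 18.6% of sonKD. Krt18 was detected in only 10.0% of control members against 3.64%, and in 19.3% against 4.03% in sonKD. With all UMIs of a cell, Krt18 was found in 117 of 498 control members and in 492 of 4480 other cells. No cell type known to lack these transcripts was at hand for a background share, and the other cells' shares include free RNA.

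High keratin levels were found in a small fraction of the members. Krt8 took no part in the score, although its partner Krt18 did. Krt8 was at 79.6 CPM in control members and 32.6 in other cells (log2 ratio 1.29, 1.10 to 1.47). In sonKD it was at 165 against 30.2 (2.45, 2.29 to 2.62). Yet 72.5% of control members and 60.2% of sonKD members had no Krt8 UMI, beside 77.7% and 73.2% of non-members. At this depth a count of 0 does not show that a cell lacked Krt8. When members were split into the top 1% of cells by score (50 in control, 28 in sonKD) and the other 448 and 246, a split made after the data were seen, the top 1% held most of the excess. Their Krt8 level was 436 CPM (368 to 514) in control and 1148 (1033 to 1273) in sonKD. The other members stood at 43.8 and 47.6 CPM, far below the top 1% but above the 32.6 and 30.2 of non-members. Their log2 ratios over non-members were 0.42 (0.17 to 0.68) and 0.66 (0.38 to 0.93), the latter past 1.5-fold. The 28 sonKD cells held 26.5% of the Krt8 UMIs of their library, and the 50 control cells 9.57%.

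Even in the top 1% Krt8 was uneven. It was at 0 UMIs in 26 of the 50 control cells (52%) and in 3 of the 28 sonKD cells (10.7%). Cells with at least 10 Krt8 UMIs per 10000 numbered 5 in control and 12 in sonKD, and all of them were in the top 1%. At 5 per 10000 there were 15 control cells, 10 of them members, and 17 sonKD cells, 15 of them members, so a few cells with much Krt8 for their depth scored low on the 8 genes. Krt18 is in the score and reached 51.1 and 84.1 UMIs per 10000 in its highest control and sonKD cell. The top 1% began at scores of 31.8 and 71.3, so the rule drew cells rich in Krt18 there. How far this set the place of Krt8 was not tested. Within the top 1%, Krt18 was at 0 in 21 of the 50 control cells and in 4 of the 28 sonKD cells. For Krt8, the working name of keratin-high epithelial cells thus rested mainly on the top 1%, and in control many of those cells had no Krt8 UMI. Within the top 1%, Krt8 reached 5 UMIs per 10000 in 9 of the 50 control cells and in 15 of the 28 sonKD cells, and the members are called here by their score.

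Krt19 and some annexin, galectin and actin-binding genes were also highest in the top 1%, to differing degrees. Krt19, a further keratin of simple epithelia, was at 69.7 CPM in the top 1%, 6.39 in the other members and 3.62 in non-members of control, and at 92.2, 6.48 and 3.92 in sonKD. Anxa2, a membrane-binding annexin, was at 209, 36.5 and 23.0 CPM in control and at 534, 58.7 and 22.7 in sonKD. The other sonKD members were thus above non-members in Anxa2 already, with a log2 ratio of 1.37 (1.11 to 1.63). Lgals3, or galectin-3, was at 215, 72.7 and 52.1 CPM in control and 582, 65.2 and 51.3 in sonKD, and Tpm1, a tropomyosin of actin filaments, at 442, 63.0 and 62.6 and at 646, 69.7 and 66.4. For Tpm1 the members outside the top 1% were thus at the level of non-members. Tagln, which encodes the actin-binding transgelin and was picked out after its values were seen, was at 100 CPM in the top 1% of control (33 UMIs) against 1.10 in non-members, and at 9.54 in sonKD (3 UMIs) against 1.55. The log2 ratio was 6.51 (5.80 to 7.20) in control and 2.62 (0.29 to 4.26) in sonKD, the latter from few molecules.

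Perp, Epcam and Sdc4 were instead higher in the other members already and higher again in the top 1%. Perp, a desmosome-associated membrane protein gene and p53 target, was at 28.8 CPM in non-members, 97.4 in other members and 239 in the top 1% of control, and at 36.7, 149 and 432 in sonKD. Epcam, the epithelial adhesion molecule that stem cells also carry, was at 62.8, 110 and 203 CPM and at 75.1, 169 and 299. Sdc4, a cell-surface proteoglycan gene, was at 108, 259 and 561 CPM and at 138, 405 and 534. Gja1, the gap junction gene, reached its higher level in the other members already, with 17.1, 44.4 and 60.6 CPM in control and 17.2, 59.8 and 60.4 in sonKD.

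**Figure D3:**
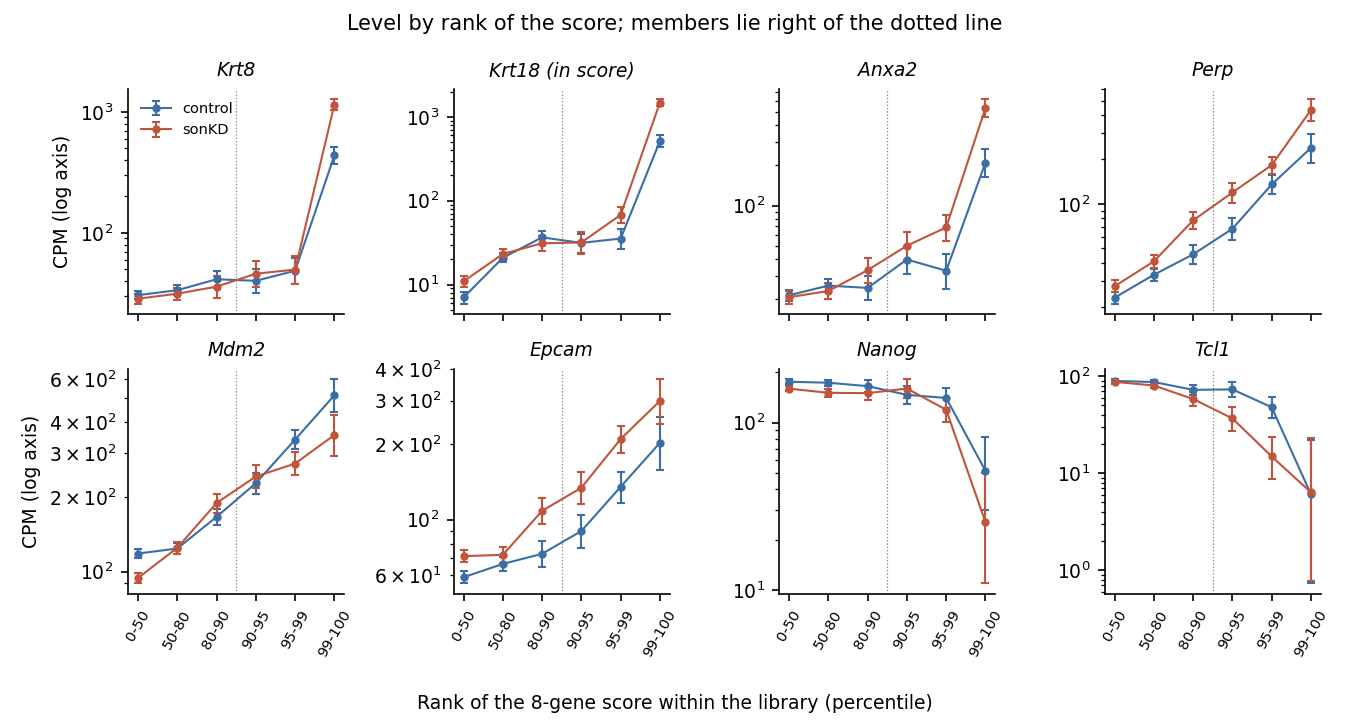
Level in CPM (log axis) of 8 genes by percentile rank of the 8-gene score in control and sonKD, with 95% Poisson intervals and a dotted line where members begin. Krt8 and Krt18 stand apart in the last bin (436 and 1148 CPM for Krt8), Perp, Mdm2 and Epcam are higher from bin to bin in most steps, and Nanog drops in the last bin to 51.5 and 25.4 CPM.

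The list of other keratins and epithelial junction genes, 25 genes without Krt18, had 9 genes at 20 CPM or more in the mean of both libraries, the level from which ratios are counted here. Of these 9, 8 were higher in members in control and 8 in sonKD, and the median log2 ratio was 0.20 and 0.31, beside -0.03 and -0.01 over all 5995 genes. Of all 5995 genes, 43.5% were higher in control members and 47.3% in sonKD, and 1.82% and 3.39% were at least 1.5-fold higher. Of the 9, Perp, Krt8 and Epcam passed 1.5-fold in each library. Cdh1, the E-cadherin of epithelia and stem cells, was at 88.2 CPM against 83.1 in control, with an interval of the log2 ratio from -0.08 to 0.25, and at 97.0 against 72.3 in sonKD. Ezr, the membrane-cytoskeleton linker ezrin, was the 1 gene lower in members, with log2 ratios of -0.30 and -0.49. The 16 genes under 20 CPM were counted at low depth, among them Cldn6 at 10.5 CPM against 2.63 in control and 15.7 against 3.20 in sonKD, and Grhl2 at 8.85 against 2.17 and 11.2 against 2.54.

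Among other S100, annexin and galectin genes, 5 of 8 were higher in control members and 7 in sonKD, with medians of 0.38 and 0.64, and 3 and 4 passed 1.5-fold. Beside the all-gene shares (43.5% and 47.3% higher, 1.82% and 3.39% past 1.5-fold), the count of 5 of 8 in control is not far from the background. S100a11 was at 123 CPM against 77.5 in control and 232 against 111 in sonKD, and S100a10, the partner of annexin A2, at 310 against 218 and 459 against 255. Anxa7 and Anxa11, annexins found in most cells, gave -0.04 and 0.00 in control. Of 24 genes of the actin cytoskeleton, 19 and 20 were higher, with medians of 0.17 and 0.21, and 3 and 7 passed 1.5-fold, beside 1.82% and 3.39% of all genes. Caldesmon (Cald1) was at 229 CPM against 117 and at 284 against 135, and thymosin beta 4 (Tmsb4x) at 810 against 494 and 1002 against 535. Actg1, the most abundant cytoplasmic actin transcript beside Actb, gave -0.02 and 0.01.

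Among the lists with at least 3 genes at 20 CPM, targets of p53 had the highest control median, 0.59, against 0.40 in sonKD, and Perp and Ddit4l belong to it. Of 16 genes, 15 were higher in control and 14 in sonKD, beside 43.5% and 47.3% of all genes, and 8 and 7 passed 1.5-fold, beside 1.82% and 3.39%. Mdm2, the ubiquitin ligase that restrains p53, was at 299 CPM against 125 in control and 267 against 114 in sonKD, with log2 ratios of 1.26 (1.16 to 1.35) and 1.23 (1.12 to 1.35). Phlda3 was at 217 against 108 and 182 against 103, and Cdkn1a, the inhibitor of cyclin-dependent kinases, at 76.6 against 48.4 and 63.3 against 47.2. Bax, which promotes cell death, was nearly level at 579 against 553 and 490 against 490 CPM. Sfn, in the score, is itself a p53 target. With the score taken without Sfn, an alternative added after the data were seen, the p53 list had medians of 0.53 and 0.39. The cells so chosen were 86.7% members in control and 93.4% in sonKD. Both choices thus held mostly the same cells, and these medians say little about the part of Sfn. In the 53 control and 16 sonKD members whose leading score gene was Sfn, Mdm2 reached 334 and 734 CPM, and Krt8 was at 37.7 and 24.3. In members led by S100a6, Mdm2 was at 277 and 221 CPM and Krt8 at 90.5 and 169. Members were grouped here by the values that chose them, so these levels are a description only.

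S100a6 was the leading gene in 226 control members (45.4%) and 197 sonKD members (71.9%). Lgals1 led in 113 (22.7%) and 42 (15.3%), Sfn in 53 (10.6%) and 16 (5.84%), and Krt18 in only 2 and 3. A further 88 control members (17.7%) and 12 sonKD members (4.38%) had a tie.

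The core factor Pou5f1 (Oct4) was close to the level of other cells, at 1173 CPM against 1097 in control and 957 against 912 in sonKD, and at 2500 UMIs it was detected in 93.2% of control members and 91.9% of other cells. Sox2 was at 347 against 352 and 310 against 339 CPM. Nanog was lower, at 135 against 173 and 129 against 155 CPM, with log2 ratios of -0.36 (-0.49 to -0.22) and -0.27 (-0.43 to -0.12). Of 14 naive pluripotency genes, 13 were lower in members in control and 12 in sonKD, with medians of -0.33 and -0.28, but 1 and 2 passed 1.5-fold. Of all 5995 genes, 3390 were lower in control and 3160 in sonKD, and 1.32% and 2.84% were at least 1.5-fold lower. Tcl1, a coactivator of the kinase Akt, was the lowest: 57.0 CPM against 86.9 in control and 24.5 against 82.3 in sonKD. Tbx3, a T-box factor of naive cells, was slightly higher, at 209 against 189 and 188 against 172 CPM.

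The top 1% differed more from the rest. Nanog was at 51.5 CPM there, 144 in the other members and 173 in non-members of control, and at 25.4, 141 and 155 in sonKD. Klf4 was at 39.4, 122 and 141 CPM and at 12.7, 129 and 136. Tdh, the threonine dehydrogenase of naive stem cells, was at 276, 655 and 628 CPM and at 73.1, 585 and 694. Pou5f1 stayed at 939 and 684 CPM in the top 1%, against 1197 and 990 in the other members. The summed naive list was 2124, 3227 and 3677 CPM in control and 1437, 3113 and 3450 in sonKD. The cells at the top of the score thus kept most of their Pou5f1 and little Nanog, while other members lay closer to the non-members in both. Nanog in these other members still gave log2 ratios over non-members of -0.27 (-0.41 to -0.14) in control and -0.14 (-0.30 to 0.01) in sonKD.

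Of the formative and primed genes, Dnmt3b, a DNA methyltransferase, was at 64.4 CPM in control members and 91.9 in sonKD members, with log2 ratios of 0.69 and 1.44, while Dnmt3a was lower, at 21.3 against 27.1 and 18.7 against 27.2. Fgf5, a marker of primed cells, had 0 and 2 UMIs in members. The list median was 0.06 and 0.05 over 4 genes.

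Markers of other cell types that the culture could hold were counted over their whole lists. The 13 trophectoderm markers summed to 100 CPM in control members and 62.2 in other cells, and to 108 and 54.5 in sonKD, and Elf5 was at 0. Cdx2, a trophectoderm regulator, had 12 and 13 UMIs in members, and Hand1, of trophoblast giant cells, 4 and 13. The 4480 and 2457 non-members, though far more numerous, held only 5 and 4 UMIs of Cdx2 and 5 and 0 of Hand1. In the top 1%, Cdx2 had 8 UMIs in control and 6 in sonKD, and Hand1 had 2 and 12. The 12 Hand1 UMIs of sonKD came from 3 cells. The trophectoderm list summed to 252 and 315 CPM in the top 1% against 85.2 and 83.1 in the other members. The 14 primitive endoderm markers summed higher in the top 1% as well, at 982 and 1361 CPM against 481 and 520 in the other members. Non-members stood at 414 and 382 CPM. Gata6 and Sox17 had 0 UMIs in the top 1% of both libraries. Non-members held Gata6 at 0.51 and 0.48 CPM and Sox17 at 0.08 and 0.14. At such levels so few cells could hardly give a UMI, so these counts of 0 say little. Gata6 had 10 and 3 UMIs in the other members. Its log2 ratio over non-members there was 2.58 (1.31 to 3.75) in control and 1.25 (-1.19 to 3.09) in sonKD. The surface ectoderm and basal keratinocyte list summed lower in members, at 44.2 against 48.6 CPM and 25.2 against 41.9. Krt17, its 1 gene at 20 CPM, was at 33.5 against 39.9 and 12.6 against 34.5, a wider gap than that of the list. The lower sum was thus that of Krt17, and the other genes did not sum lower. Trp63 and Krt15 were at 0, with Krt5 and Krt14 at 1 UMI or none. Fibroblast and feeder markers summed to 5.53 against 6.68 and 4.08 against 5.88 CPM, with Col3a1, Lum, Dcn, Postn and Acta2 at 0. Mesoderm markers summed to 60.6 against 38.4 and 40.5 against 31.3 CPM, of which Nodal gave 51.7 and 32.3, and T was at 0. Neuroectoderm markers summed lower, to 84.9 against 128 and 56.1 against 112 CPM, of which Ncam1 and Tubb3 were the genes at 20 CPM, and Zic1 was at 0 in members. Primitive endoderm markers summed to 527 against 414 and 610 against 382 CPM over all members. Of the 3 genes of that list at 20 CPM, Sparc was higher (335 against 213 and 431 against 211) and Lama1 lower (26.0 against 38.7 and 10.2 against 32.0), and Sox17 and Foxa2 were at 0. What part cells of a trophectoderm or primitive endoderm kind have in the top 1% was not tested.

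Among the lists with at least 3 genes at 20 CPM, that of the integrated stress response had the lowest medians, -0.44 and -0.65. Of its 9 genes, 8 and 9 were lower, beside 3390 and 3160 of all 5995 genes, and 2 and 5 were past 1.5-fold, beside 1.32% and 2.84%. Nupr1, a stress-induced chromatin protein gene, was at 33.2 CPM against 65.4 in control and 32.7 against 73.5 in sonKD, and the serine synthesis gene Psat1 at 78.3 against 125 and 67.7 against 131. Of 17 hypoxia and glycolysis genes, 15 were lower in each library, beside the same 3390 and 3160 of all 5995, with medians of -0.21 and -0.31. Pfkp, a phosphofructokinase, was at 83.2 against 134 and 57.8 against 106 CPM. Heat shock and chaperone genes had medians of -0.02 and 0.00, although Hspb1, a small heat shock protein related to Cryab, was at 1849 CPM against 1432 in control and 1799 against 1406 in sonKD. Glutathione and NRF2 genes gave 0.10 and 0.14, led by Gsto1 at 70.0 against 38.8 and 87.8 against 42.1. Among genes of the FGF-ERK response, Spry2, a feedback inhibitor, was at 47.3 against 30.4 and 53.1 against 30.9, and the list medians were 0.32 and 0.41 over 9 genes.

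**Figure D4:**
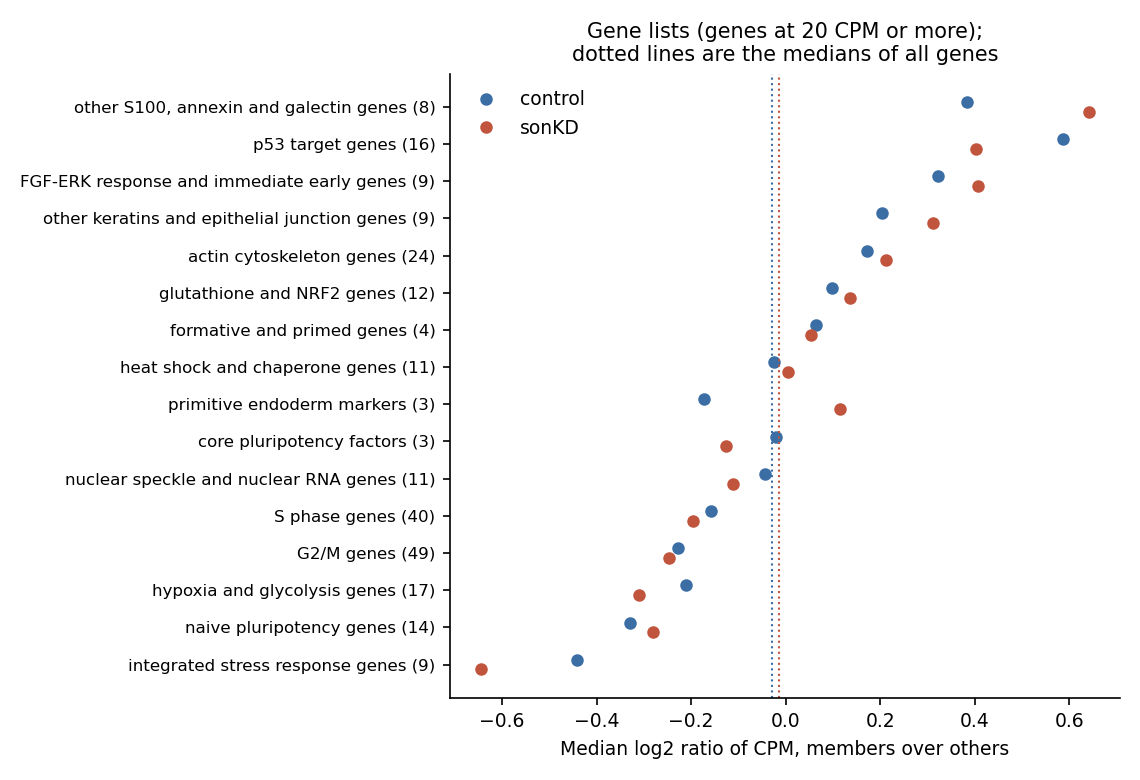
Median log2 ratio of CPM, members over other cells, of each gene list with at least 3 genes at 20 CPM (number in brackets) in control and sonKD, with dotted lines at the medians of all genes (-0.03 and -0.01). The S100, annexin and galectin list and the p53 list lie highest (0.64 in sonKD and 0.59 in control), and the integrated stress response list lowest (-0.44 and -0.65).

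Over the 5995 genes at 20 CPM that were not in the score, 109 were at least 1.5-fold higher in control members, a share of 1.82%, and 79 at least 1.5-fold lower, or 1.32%. In sonKD 203 (3.39%) were higher and 170 (2.84%) lower. The 5th to 95th percentile of all log2 ratios ran from -0.39 to 0.36 in control and from -0.47 to 0.49 in sonKD. Both libraries shared 89 of the higher genes, which is 81.7% of the control set and 43.8% of the sonKD set, and 54 of the lower genes, or 68.4% and 31.8%, and no gene passed 1.5-fold in opposite directions. Across genes the ratios of the libraries correlated with a Pearson r of 0.747 over the 5995 genes, which are not independent and share the score that chose the cells. Without the top 1% of cells, 64 genes in control were 1.5-fold higher.

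Apart from the genes above, those high in members of both libraries included Peg10, an imprinted retrotransposon-derived gene needed in the placenta, at 65.0 CPM against 23.5 in control and 106 against 17.5 in sonKD. Ptpn14, a phosphatase that binds the transcriptional regulator YAP, was at 74.7 against 28.8 and 69.8 against 28.0. Wnt6, a secreted Wnt ligand, was at 41.8 against 16.9 and 44.9 against 18.8, and Grip1, a PDZ-domain scaffold gene, had a log2 ratio of 1.25 (1.06 to 1.43) in control and an interval of 1.21 to 1.59 in sonKD. Ano3, of the anoctamin family, was at 102 against 37.1 and 99.7 against 39.9, and Plxdc2 at 55.9 against 19.8 and 47.3 against 21.2. Log2 ratios of 1700007K13Rik (1.56 and 1.32), Ddit4l (1.62 and 1.22) and Prrg4 (1.27 and 1.42) were of like size in both libraries. Peg10, Krt8 and Anxa2 differed more, with 1.47, 1.29 and 1.18 in control and 2.60, 2.45 and 2.27 in sonKD.

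The lowest genes were Fut9, a fucosyltransferase that makes the SSEA-1 epitope of mouse stem cells, at 8.85 CPM against 30.1 in control and 7.83 against 24.1 in sonKD, and Fhod3, a formin, at 18.5 against 42.3 and 6.81 against 38.2. Sema5b, a semaphorin, had log2 ratios of -1.07 and -1.54, and Tgm2, a transglutaminase, of -1.06 and -1.35. Pck2, the mitochondrial carboxykinase, was at 18.8 against 37.7 and 8.51 against 24.1 CPM. The adhesion molecule Ncam1 was at 34.3 against 65.0 and 26.2 against 51.6, the endocytic receptor Ly75 at 64.2 against 123 and 47.3 against 111, and Igsf21 at 23.5 against 46.5 and 17.7 against 44.1. The host gene Mir124a-1hg gave -0.99 and -0.95.

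**Figure D5:**
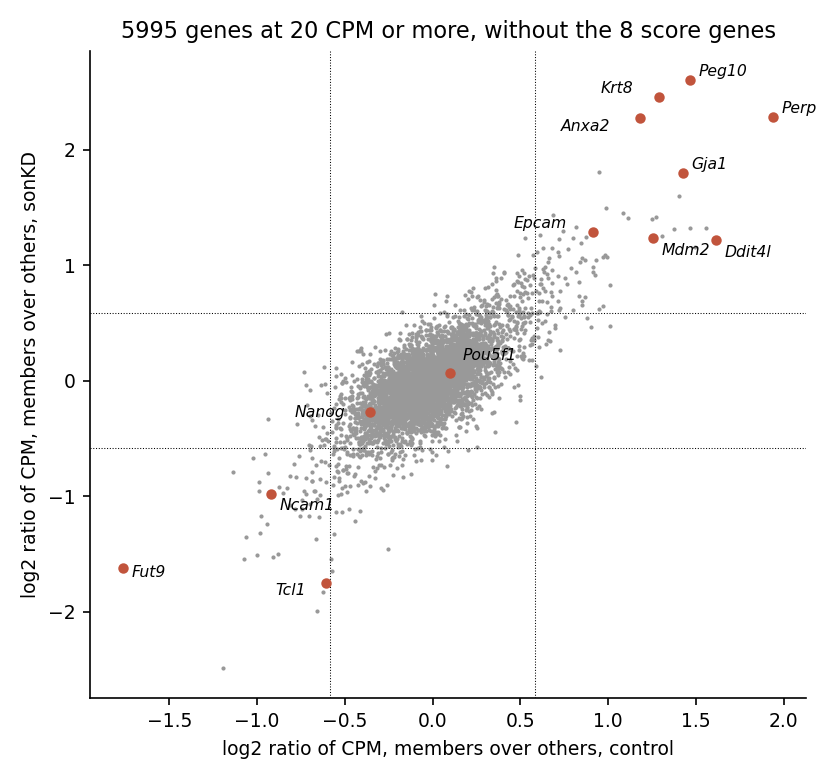
Log2 ratio of CPM, members over other cells, in control (x axis) and sonKD (y axis) for 5995 genes without the score genes, with dotted lines at 1.5-fold. Perp, Peg10, Krt8, Anxa2 and Gja1 lie in the upper right corner, Fut9 lowest in control, and Pou5f1 near 0 in both.

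Cell cycle phases were assigned after each cell was thinned to 2500 UMIs. Members held more cells scored as G1, 13.1% against 3.26% in control and 16.4% against 4.84% in sonKD, with differences of 9.79 (6.91 to 13.1) and 11.6 (7.29 to 16.6) percentage points. Among control cells of at least 5000 UMIs the difference was 2.98 points, which moved it by over 1.5 times. Over all alternatives, 17 values of the G1 difference stayed and 7 moved, with both libraries among the latter. G2/M cells made up 38.4% of control members against 42.5%, and the interval of this difference (-8.68 to 0.52 points) included 0. In sonKD they made up 32.8% against 42.3% (-15.4 to -3.26). Without thinning, the G2/M shares were 29.9% against 35.5% and 21.9% against 33.3%. The lists behind the phases had medians of -0.16 and -0.20 for S phase and of -0.23 and -0.25 for G2/M, with Nusap1, a spindle protein gene, at 78.8 CPM against 112 in control and 61.2 against 104 in sonKD. Phase calls read free RNA as well, and its part in them was not tested.

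The members did not form a cluster of their own when each library was clustered without the score genes, phase genes and Son. In control, 7 clusters were found, and 32.5% of members fell in a cluster led by 1700007K13Rik, Perp and Phlda3, where 20.2% of cells (17.5 to 23.1) were members. A further 19.9% fell in a cluster led by Ano3, Plxdc2 and Grip1, where 25.9% (21.6 to 30.6) were members, and 10.4% in a cluster led by Rbl2, Mdm2 and Apaf1. In sonKD, 60.9% of members fell in 1 of 5 clusters, led by Ano3, Plxdc2, Grip1 and Perp, where 31.3% of cells (27.4 to 35.5) were members. In each library the members were thus found in all clusters, but unevenly. The sonKD cluster with 60.9% of members held 19.5% of kept cells. The control clusters with 32.5% and 19.9% of members held 16.1% and 7.67% of kept cells. Most cells of every cluster were non-members, which the rule fixed for the largest clusters, since they held more than double the cells that were members.

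Between the libraries, the summed score genes were higher in sonKD members, with a log2 ratio of 1.06, and with 1 threshold for both libraries it was 0.54, since the rule takes the same share of each library. S100a6 gave 1.38 in members (1.31 to 1.45) and 0.94 in other cells (0.86 to 1.03). It is in the score and the threshold was lower in control, so the rule itself shifts both values. The same holds for Krt18 and the other score genes. Krt18 gave 1.38 (1.18 to 1.60) in members and 0.20 (0.02 to 0.38) in other cells, Krt8 1.05 (0.84 to 1.27) and -0.11 (-0.24 to 0.01), and Anxa2 1.07 (0.80 to 1.33) and -0.02 (-0.17 to 0.13). For the keratins this lay mainly in the top 1%: Krt8 was at 1148 CPM in sonKD and 436 in control there, and at 47.6 and 43.8 in the other members. Krt18 was at 1479 and 515 CPM in the top 1% and at 48.4 and 33.2 in the other members, and Anxa2 at 534 and 209 and at 58.7 and 36.5. These groups lie at unlike scores, since the top 1% began at 31.8 in control and 71.3 in sonKD. No common threshold is given for single genes, here or among the genes that follow. For Sfn the values were 0.57 and -0.06, for Lgals1 0.97 and 0.36, and for Fgfbp1 0.64 and 0.61. Perp gave 0.70 and 0.35, and Mdm2 -0.16 and -0.14.

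Of the 6001 genes at 20 CPM, 84 (1.4%) were at least 1.5-fold higher in sonKD members than in control members and 227 (3.78%) at least 1.5-fold lower. The median of all log2 ratios was -0.09 in members and -0.12 in other cells. Among the highest were Rpl29 (1.96), Hist1h2ap (1.96), Rps27 (1.94) and Gstp1 (1.70), which gave 2.00, 2.43, 1.76 and 1.47 in other cells, so a difference of this kind was present outside the members too. These 4 are uncertain as single genes, since 43.7% to 100% of their transcript ends are shared with copies. The lowest were Pigt at -1.60 in members and -0.94 in other cells, and a group that was near level in other cells: Fhod3 at -1.45 against -0.15, Krt17 at -1.41 against -0.21, Lama1 at -1.35 against -0.28 and Myo1f at -1.24 against -0.04. Tcl1 gave -1.22 (-1.63 to -0.82) in members and -0.08 (-0.16 to 0.00) in other cells. Of the nuclear RNAs, Neat1, the scaffold of paraspeckles, gave 1.28 in members and 1.37 in other cells, and Malat1 -0.03 and -0.29. With 1 library a group, none of these differences has a replicate check.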

How the data were processed

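Transcripts were counted in single cells of 1 control and 1 sonKD library (71046373 and 60352438 UMIs), grouped by sample title. The deposited matrices hold whole-number UMI counts per gene and barcode, made by the authors with Cell Ranger 7.1.0 per the file headers, on mm10 per the submitters' processing notes; the treatment of intronic reads is not given in the sources used here. All barcodes are listed. Cells were barcodes with 2500 UMIs or more, 1000 genes or more and no more than 10% mitochondrial UMIs. Scrublet, run in scanpy 1.11.5, marked under 0.5% of barcodes and so did not work as a caller; no doublets were removed, and removal by an expected rate of 0.8% per 1000 cells was an alternative.

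Counts were summed over members and over the other kept cells of a library and divided by their total to give CPM. Genes at a mean of 20 CPM over both libraries entered counts of genes and lists; a gene was counted as higher or lower from 1.5-fold. Cells were thinned at random to 2500 UMIs for detection and phases (scanpy cell cycle scores). Clusters came from each library's 2000 variable genes, 30 components, 15 neighbours and Leiden resolution 0.5. Programs were Python 3.11.15, numpy 2.4.6, scipy 1.17.1 and pandas 2.3.3, and the ratios were tested on simulated data. Positions are those of GENCODE M21, which held 32158 of the 32285 gene identifiers.

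The members and the 22 gene lists were chosen with earlier results of these data known. Genes named are the 8 score genes, the 15 highest and 10 lowest ratios of members over other cells by the weaker library, the 2 genes of each list farthest from 0, the 5 highest and 5 lowest ratios of sonKD over control in members, and Krt8, Krt19, Epcam, Cdh1, Pou5f1, Sox2, Nanog, Son, Malat1, Neat1, Cdkn1a and Mdm2. Of these, 1 is not reported here. Any other gene was chosen after its values were seen. With 1 library per group no test was possible.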

Additional observations from a re-analysis of the deposited data

How the results depend on the processing

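Of the alternatives tried, 122 values of the comparisons stayed within the spread or within 1.5 times the count, and 41 moved, with no change of direction. Of gene lists 453 stayed, 22 moved and 1 reversed, and of named genes 1784 stayed, 337 moved and 7 reversed. Of the G1 differences 17 stayed and 7 moved, and of the single left-out genes 139 stayed and 79 moved. The cause was not tested except where the construction shows it (fewer or more genes or cells). Genes higher in control members numbered 215 with the top 5% of cells, 41 with the top 20%, 60 at 5% mitochondrial UMIs, 65 with the score on thinned cells, 34 at 50 CPM, 2264 with no filter and 64 after removal of the top 1%; lower genes numbered 205 (top 5%), 35 (top 20%), 22 (50 CPM) and 1261 (no filter). In sonKD higher genes numbered 326, 121, 80 and 2754 under the top 5%, the top 20%, 50 CPM and no filter, and lower genes 340, 64, 71 and 1551, with 113 when members were taken within depth deciles. The median of left-out genes was 2.74 in control and 3.36 in sonKD for the top 5%, 1.60 and 2.50 for the top 20%, and 1.60 and 2.17 after removal of the top 1%; in sonKD it was 2.82 on thinned cells, 2.75 without Sfn and 2.78 without S100a6 and Lgals1. The epithelial median was 0.91 and 1.43 with no filter and 0.53 in sonKD for the top 5%. The sonKD over control ratio of the summed score genes was 1.17 at 5000 UMIs, 1.13 at 5% mitochondrial UMIs, 0.99 for the top 20%, 1.16 on thinned cells, 1.02 as a mean over cells, 1.12 without mitochondrial and ribosomal genes, 1.15 with median-of-ratios factors, 1.12 without S100a6 and Lgals1, and 0.54 with a common threshold. Malat1 in control reversed to -0.074 (5% mitochondrial UMIs), -0.11 (top 20%), -0.050 (thinned), -0.0097 (depth deciles) and -0.042 (after removal of the top 1%), Pou5f1 in sonKD to -0.024 (top 5%), Son in sonKD to 0.087 (without S100a6 and Lgals1), and the primitive endoderm median in control to 0.57 (no filter). The alternatives without Sfn, without S100a6 and Lgals1, with at least 5 score UMIs and after removal of the top 1% were chosen after the data were seen. No paired analysis was possible because each group has 1 sample. Depth limits the score itself, which rests on few UMIs in control members.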
